A study of Populus ussuriensis with 12 samples.

Results

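The response of wild-type poplar roots to polyethylene glycol was described from 6 of the 12 root libraries of the study, chosen by their tissue label. Roots of wild-type *Populus ussuriensis* that had been treated with 6% PEG6000 (3 libraries) were compared with untreated wild-type roots (3 libraries). Plants were grown in vitro on Murashige and Skoog medium with sucrose, were moved at an age of 7 days, and were kept for a further 7 days on medium with 6% PEG6000 or without it; the untreated plants are labelled as 14 days old. The other 6 libraries came from roots of plants that overexpress PuC3H35, a CCCH zinc finger protein gene, on PEG (3 libraries) and untreated (3 libraries). They entered the gene filter, the fit, the means over all 12 libraries and the comparisons with the overexpressor below. The labels' protocols also mention MeJA as a medium additive without tying it to any library, and no label says whether libraries came from separate plants, so the p-values reflect only how these libraries vary, which may be technical.

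PEG6000 is a large polymer that stays outside the root cells and lowers the water potential of the medium, so it is used to impose osmotic, drought-like stress without salt. Roots are the first organ to meet such stress. Known responses of plant roots to water deficit include synthesis of the hormone abscisic acid, accumulation of compatible solutes and of protective hydrophilic proteins, changes of water channels and of cell wall enzymes, and slower growth. The deposited files give each gene by its poplar gene model identifier and pair 0 of the 35907 identifiers with a gene name or product, so the genes are described here by level, size of change, length and place in the identifier order, and no gene is assigned to one of these known responses. For the same reason the tissue label was not checked against marker genes, and no sequences are shown.

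The unit was FPKM, in which the reads or fragments of a gene are divided by its length and by the depth of the library, a level per length that can be compared between genes. A gene was tested if it had at least 1 FPKM in 3 or more of the 12 libraries, which held for 24976 genes. Changes are differences of log2(FPKM + 1), PEG minus control, from 1 limma fit to all 12 libraries; a value of 1 is a 2-fold change, and for weakly expressed genes this scale gives too small a change. A gene was called higher or lower where the Benjamini-Hochberg adjusted p over all genes tested was under 0.05. Depth recovered from the FPKM steps was 10566925 to 11722648 reads in PEG libraries and 11220412 to 12053892 reads in control libraries. Between 30634 and 30897 genes had a value above 0 in PEG libraries and between 30432 and 30749 in control libraries.

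Of the genes tested in wild-type roots, 28.6% differed between the media. On PEG, 2994 genes (12% of those tested) were called higher and 4153 (16.6%) lower. Most falls were small and a part of the rises was very large. The median log2 change was 0.89 among higher genes and -0.67 among lower genes, while the median over all genes tested was -0.04. The 90th percentile of the size of change was a log2 value of 2.38 for higher genes and -1.36 for lower genes. Changes of less than 2-fold made up 56.6% of the higher calls (1696 genes) and 77.0% of the lower calls (3196 genes). At the other end, on the FPKM + 1 scale, 197 genes were at least 8-fold higher and 18 at least 8-fold lower. On the same scale 64-fold was reached by 15 rises and 0 falls. The added 1 shrinks changes to or from levels near 0, so these counts, the 0 falls among them, depend on it. With 0.1 added in place of 1, 802 genes were at least 4-fold higher and 312 at least 4-fold lower, against 427 and 123. In bulk roots, fewer cells of a type and less RNA per cell cannot be told apart, so these differences are of the root as a whole.

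The 3 libraries of each medium rarely overlapped in the called genes. No overlap was found in 2958 of the 2994 higher genes and 4078 of the 4153 lower genes. Over all genes tested, the share was 18.9% for higher PEG libraries and 25.3% for lower ones. The call selects genes on the separation of these same libraries, so the counts describe the called genes and are not a test. The nearest libraries of the media differed at least 2-fold, on the FPKM + 1 scale, in 790 higher genes (26.4%) and 303 lower genes (7.3%). They differed at least 8-fold in 125 higher genes and 4 lower genes. Each of the 3 PEG libraries lay above the control mean for all 2994 higher genes and below it for all 4153 lower genes, which the call itself makes likely. Among the 17829 genes that were not called, the median absolute log2 change was 0.16 with a median SE of 0.14, and 47 of them differed by at least 2-fold without passing the test.

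**Figure D1:**
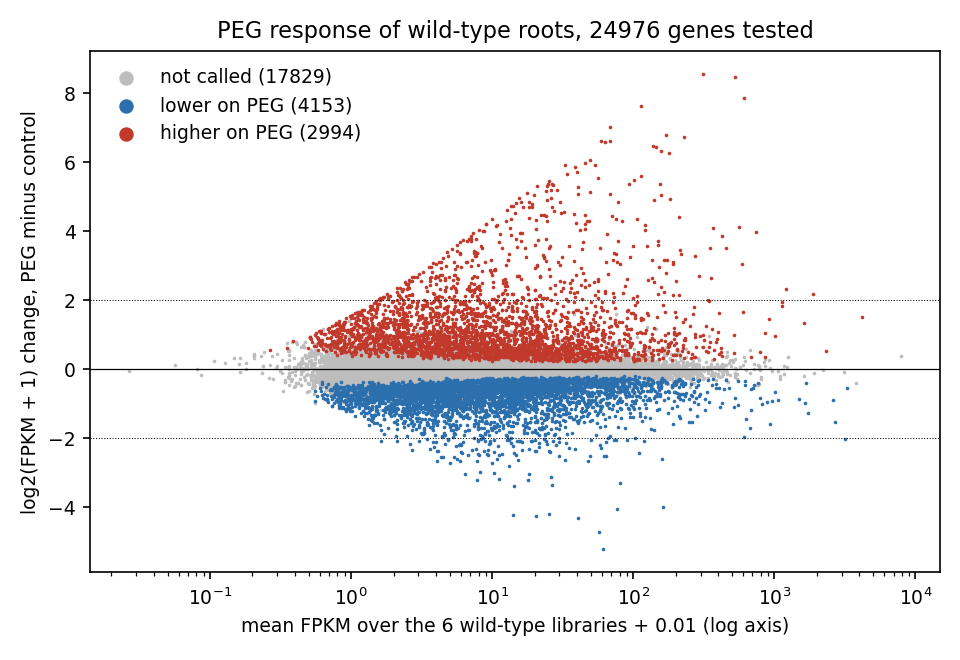
Change of each of the 24976 tested genes on PEG in wild-type roots (log2 of FPKM + 1, PEG minus control) against its mean FPKM over the 6 wild-type libraries, on a log axis; red points were called higher (2994), blue points lower (4153) and grey points were not called, and dotted lines mark 4-fold changes. Rises reach 8.54 and falls -5.21, and points beyond the upper dotted line outnumber those beyond the lower one.

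On the log2(FPKM + 1) scale the largest rise was that of Potri.001G391200.v3.1. The order depends on the added 1. Another gene had means of 137 FPKM on PEG, against 0.0432 FPKM on control medium, and a log2 change of 7.02. Potri.001G391200.v3.1 had 761, 378 and 747 FPKM in the 3 PEG libraries, against 0.446, 0.470 and 0.948 FPKM in the 3 control libraries. All PEG libraries were far above all control libraries, and PEG library 2 was the lowest of its group. The log2 change was 8.54 (SE 0.42, limma adjusted p 9.53e-08), and it rests on 6 to 13 reads in each control library against 4776 to 9955 in each PEG library. Potri.007G120400.v3.1 had 1308, 731 and 1097 FPKM on PEG, against 2.14, 1.43 and 2.095 FPKM on control medium. The groups did not overlap and PEG library 2 was again the lowest on PEG. Its log2 change was 8.47 (SE 0.36, limma adjusted p 4.36e-08).

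On the log2(FPKM + 1) scale the largest fall was that of Potri.014G149700.v3.1. This gene had 1.21, 3.16 and 2.55 FPKM on PEG, against 104, 161 and 96.0 FPKM on control medium. It remained detectable on PEG, with 27 to 74 reads in each library. The log2 change was -5.21 (SE 0.37, limma adjusted p 1.36e-06). Potri.001G176200.v3.1 had 2.25, 1.58 and 6.15 FPKM on PEG, against 100, 167 and 63.0 FPKM on control medium. In both genes control library 2 was the highest of its group. The second fall had a log2 change of -4.72 (SE 0.44, limma adjusted p 1.11e-05). The order of falls also depends on the added 1. Another gene had means of 0.337 FPKM on PEG, against 27.8 FPKM on control medium, and a log2 change of -4.21.

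**Figure D2:**
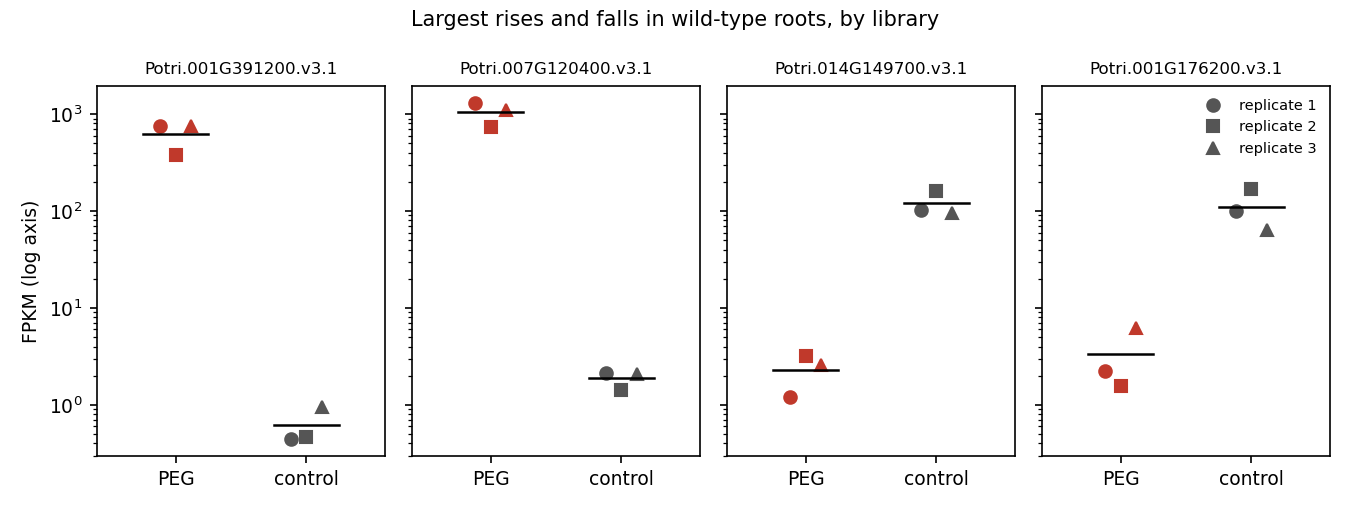
FPKM on a log axis of the leading 2 rises and the leading 2 falls in each wild-type library, PEG left and control right; symbols mark the replicate and black lines the group mean (n = 3). The groups do not overlap in any of the 4 genes, and control values of the rising genes lie between 0.446 and 2.14 FPKM.

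The 15 largest rises and the 15 largest falls were limited to called genes whose libraries did not overlap and whose higher group averaged 5 FPKM or more. Choosing by size of change favours low control levels in rises and high control levels in falls, so the levels are a description. The 15 rising genes had means of 98.1 to 1217 FPKM on PEG, against 0.0432 to 5.51 FPKM on control medium, and log2 changes of 6.07 to 8.54. The 15 falling genes had means of 0.337 to 18.3 FPKM on PEG, against 15.02 to 308 FPKM on control medium, and log2 changes of -5.21 to -3.12. The largest limma adjusted p was 2.93e-05 among these rises and 0.0019 among these falls. These bounds are of group means, and single libraries lay beyond them.

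Single libraries stood at the edge of their group in these genes. PEG library 2 was the lowest of the 3 PEG libraries in 14 of the 15 largest rises and in 255 of the 427 genes at least 4-fold higher (59.7%), against 30.1% of all genes tested. Control library 2 was the highest of the 3 control libraries in 13 of the 15 largest falls and in 84 of the 123 genes at least 4-fold lower (68.3%), against 29.6% of all genes tested. PEG library 2 was also the highest PEG library in 77 of the 123 genes at least 4-fold lower (62.6%), against 42.9% of all genes tested. In the 15 largest falls it was the highest in 7, as was PEG library 3. The median log2 change of the 427 genes was 2.96, 2.75 and 2.93 in PEG libraries 1, 2 and 3, each set against the control mean. For the 123 genes it was -2.51, -2.18 and -2.32, so PEG library 2 had the smallest median change in both classes. Without PEG library 2 the number of genes at least 4-fold higher was 451, and without control library 2 the number at least 4-fold lower was 98.

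Some genes were under 1 FPKM without PEG. A total of 58 genes were under 1 FPKM in all 3 control libraries and at 10 FPKM or more in all 3 PEG libraries, and 2 genes showed the reverse. With a lower bound of 5 FPKM the classes held 94 and 8 genes. The median FPKM of the 58 genes was 32.1, 22.95 and 29.99 in the 3 PEG libraries, against 0.132, 0.177 and 0.165 in the 3 control libraries. Their mean levels on PEG ran from 11.6 to 629 FPKM, 6 of them reached a mean of 100 FPKM or more, and 4 of them had 0 reads in all 3 control libraries. The 58 genes together held 3588, 2225 and 3230 FPKM in the PEG libraries, against 12.02, 15.7 and 15.9 FPKM in the control libraries. The 8 genes of the reverse class had medians of 0.531, 0.410 and 0.741 FPKM on PEG, against 8.57, 14.1 and 7.22 FPKM on control medium. Because levels chose these genes, the values describe them and are not a test.

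The response also moved a large share of all expression. Genes called higher held 24.7%, 21.5% and 23.7% of the summed FPKM in the 3 PEG libraries, against 9.68%, 10.2% and 9.78% in the 3 control libraries. Genes called lower held 14.7%, 16.4% and 15.4% in the PEG libraries, against 26.9%, 28.4% and 26.9% in the control libraries. The classes thus exchanged their order: rising genes outweighed falling genes in every PEG library and falling genes outweighed rising genes in every control library. Genes that were not called held 60.9% ± 0.76 on PEG and 62.4% ± 1.11 on control medium (SD, n = 3 each). These shares were computed on genes chosen by the same comparison and are a description.

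**Figure D3:**
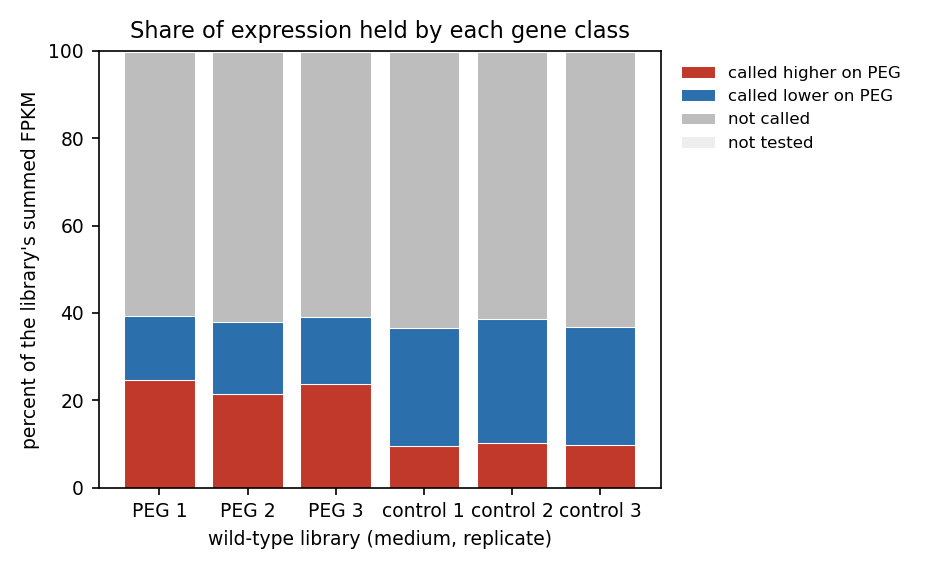
Share of each wild-type library's summed FPKM, in percent, held by genes called higher on PEG (red), called lower on PEG (blue), not called (grey) and not tested (light grey, about 0.3%), PEG libraries left and control libraries right. The red share is 21.5% to 24.7% in PEG libraries and 9.68% to 10.2% in control libraries.

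A small share of the called genes gave 50% of the gain and of the loss. Summed over the 2994 higher genes the mean level was greater on PEG by 83860 FPKM, and 88 genes (2.94% of them) accounted for 50% of this gain. Summed over the 4153 lower genes the difference was 71310 FPKM, and 135 genes (3.25%) accounted for 50% of this loss. The make-up of the sums differed in size of change. Genes at least 4-fold higher gave 44.3% of the gain, whereas genes at least 4-fold lower gave 11.4% of the loss, and genes that fell by less than 2-fold gave 56.6% of it. The 427 genes at least 4-fold higher held 6.72% ± 0.89 of the summed FPKM on PEG and 0.716% ± 0.128 on control medium (SD, n = 3 each).

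The 5 most abundant genes of wild-type roots included calls in both directions. The most abundant gene over the 6 wild-type libraries had 8817, 9166 and 8694 FPKM on PEG, against 7274, 5639 and 7930 FPKM on control medium. Its groups did not overlap, yet it did not pass the test (log2 change 0.37, SE 0.19, limma adjusted p 0.167). The second had 6874, 4654 and 7006 FPKM on PEG, against 1454, 2553 and 2537 FPKM on control medium, and was called higher (log2 change 1.52, SE 0.29, limma adjusted p 0.00201). The fifth was called lower, with 1043, 1502 and 1254 FPKM on PEG, against 5825, 4819 and 4601 FPKM on control medium (log2 change -2.01, SE 0.22, limma adjusted p 4.37e-05). Of the 20 most abundant genes on each medium, 12 were shared. In the lists of 100 genes, 76 were shared.

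Calls were also counted by level of expression. Among 1047 genes averaging 100 FPKM or more over all 12 libraries, 18.5% were higher and 20.1% lower. Among 9638 genes with means of 5 to 20 FPKM the shares were 11.0% and 16.8%. The SE of the log2 change had a median of 0.12 in the first of these groups and 0.13 in the second. The 1168 tested genes with means under 1 FPKM are left out here, since such a gene can pass the filter through the group where it is high. At a mean of at least 100 FPKM, 45 of the 1047 genes were at least 4-fold higher and 2 at least 4-fold lower. At means of 5 to 20 FPKM these were 166 and 58 of the 9638 genes, so the counts of the groups cannot be set against each other directly. The means include the PEG libraries, so a strongly raised gene can enter the group of 100 FPKM or more through its PEG values. These shares and counts are a description, and no relation with level is read from them.

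Genes with a large response had shorter medians of length. The gene length implied by the FPKM steps had a median of 1157 bases in the 427 genes at least 4-fold higher, 1193 bases in the 123 genes at least 4-fold lower and 1808 bases in the 17829 genes not called. Of 3193 tested genes of 500 to under 1000 bases, 4.23% were at least 4-fold higher and 1.16% at least 4-fold lower. Of 3762 tested genes of 3000 bases or more, these shares were 0.319% and 0.0797%. The share of all higher calls also differed with length, at 15.8% of genes of 500 to under 1000 bases and 7.47% of genes of 3000 bases or more, and lower calls made up 16.0% and 15.8%. Of the 1044 genes under 500 bases, 11.4% were called higher and 7.47% lower, and genes of 1000 to under 2000 bases had 13.3% and 17.7%. Level differed with length as well. The median over genes of the mean FPKM was 2.51 under 500 bases, 7.07 at 500 to under 1000 bases and 9.36 at 1000 to under 2000 bases. It was 7.84 at 2000 to under 3000 bases and 6.25 at 3000 bases or more. The part of level in these shares was not tested.

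**Figure D4:**
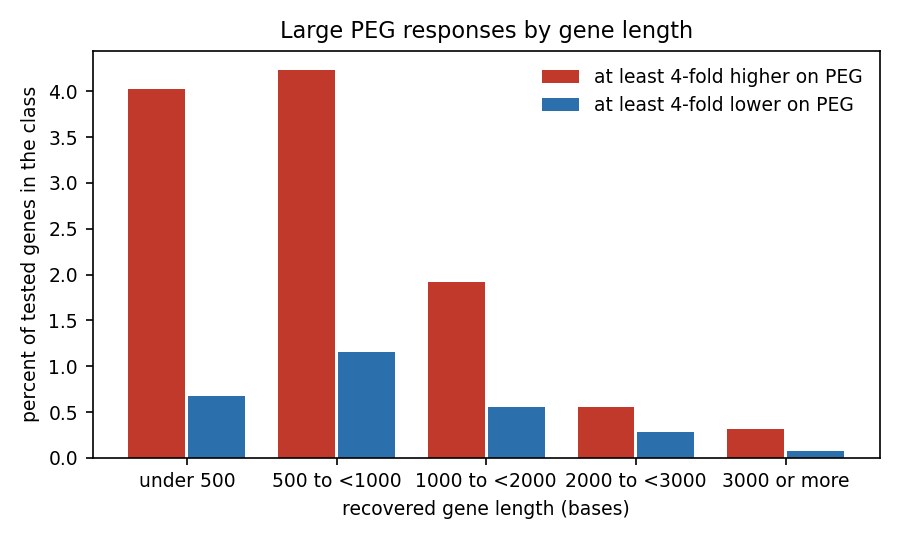
Percent of tested genes that were at least 4-fold higher (red) or at least 4-fold lower (blue) on PEG in wild-type roots, by the gene length recovered from the FPKM steps. Both shares are greatest at 500 to under 1000 bases (4.23% and 1.16%) and least at 3000 bases or more (0.319% and 0.0797%).

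Strongly induced genes often stood next to each other in the identifier order. In the naming scheme of these gene models the number before the G stands for the chromosome and the number after it rises along the chromosome, so consecutive identifiers are neighbouring genes; identifiers with a T belong to sequence not placed on a chromosome. Of the tested genes directly before or after a gene at least 4-fold higher, 20.7% were themselves at least 4-fold higher, while 1.71% of all tested genes were. For genes at least 4-fold lower these shares were 6.52% and 0.492%. In all, 104 of the 427 genes at least 4-fold higher had such a neighbour, in 41 runs, of which 14 held 3 or more genes and the longest 5. Of the 63 neighbouring pairs, 3 had equal recovered length. Whether near-identical neighbours shared reads in the authors' counting was not tested, so values of single genes within a run are uncertain.

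Of the 4 genes named above, 3 had a neighbour with a large change in the same direction. The identifier directly after Potri.001G391200.v3.1 had a mean of 90.1 FPKM on PEG, against 0.428 FPKM on control medium (log2 change 5.99, limma adjusted p 1.58e-07). The identifier directly before Potri.007G120400.v3.1 had 184 FPKM on PEG, against 3.49 FPKM on control medium (log2 change 5.36, limma adjusted p 2.32e-07). Among the falls, the 2 tested identifiers before Potri.001G176200.v3.1 also fell, to 18.3 FPKM on PEG, against 308 FPKM on control medium, and to 45.1 FPKM on PEG, against 192 FPKM on control medium. Of the runs of 5, one was on chromosome 11, with means of 7.34 to 796 FPKM on PEG, against 0.0628 to 56.3 FPKM on control medium. The other was on chromosome 19, with means of 7.61 to 38.1 FPKM on PEG, against 0 to 0.84 FPKM on control medium. By chromosome, the share of tested genes at least 4-fold higher was greatest on 19 (3.98%, 25 of 628) and 11 (3.64%, 32 of 879) and least on 15 (0.884%, 8 of 905). Genes called lower made up 14.0% to 19.1% of tested genes on each of the 19 chromosomes.

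Libraries of the same medium were closer to each other than libraries of different media. Across the 24976 genes, which are not independent replicates, pairs of PEG libraries had Pearson correlations of 0.985 to 0.989, pairs of control libraries 0.973 to 0.985, and pairs of 1 PEG and 1 control library 0.895 to 0.921. The root mean square difference of log2 values was 0.259 to 0.307 between PEG libraries, 0.308 to 0.413 between control libraries and 0.694 to 0.805 between media. The median SD over 3 libraries was 0.13 among PEG libraries and 0.16 among control libraries, and 39.3% of genes had the larger SD on PEG. The number of expressed genes was compared as well: 23237 ± 130 genes on PEG and 23166 ± 121 on control medium had at least 1 FPKM (SD, n = 3 each; two-sided exact permutation p 0.5, with 0.1 the smallest possible). The 100 most abundant genes held 18.4% ± 0.6 of the summed FPKM on PEG and 18.7% ± 0.44 on control medium (SD, n = 3 each; two-sided exact permutation p 0.6).

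The PEG response of wild-type roots was compared with that of the PuC3H35 overexpressor, which shares no library with it, by size of the wild-type change. In the overexpressor 1.54% of tested genes were called higher and 0.537% lower on PEG. Of the 197 genes at least 8-fold higher in wild type, 127 (64.5%) passed as higher there too, with median log2 changes of 4.01 in wild type and 1.51 in the overexpressor. Of the 1696 genes raised less than 2-fold in wild type, 45 (2.65%) were called higher in the overexpressor, with medians of 0.60 (wild type) and 0.10 (overexpressor). Among falls, 3 of the 18 genes at least 8-fold lower and 46 of the 3196 genes lowered less than 2-fold were called lower in the overexpressor. The difference of the responses, overexpressor minus wild type, passed the limma interaction test in 7.5% of all genes, 4% with a more negative and 3.5% with a more positive value. This total of 1873 genes was 967 without PEG library 1, 1136 without PEG library 3 and 1240 without control library 3 of wild type. Overexpressor libraries were not left out in turn, so the dependence of the total on them was not tested. The difference passed toward a smaller response in the overexpressor in 148 of the 197 genes at least 8-fold higher (75.1%) and in 15 of the 18 genes at least 8-fold lower (83.3%). Classes and interaction both use the wild-type libraries, which favours a smaller response in the overexpressor, so these shares are a description.

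**Figure D5:**
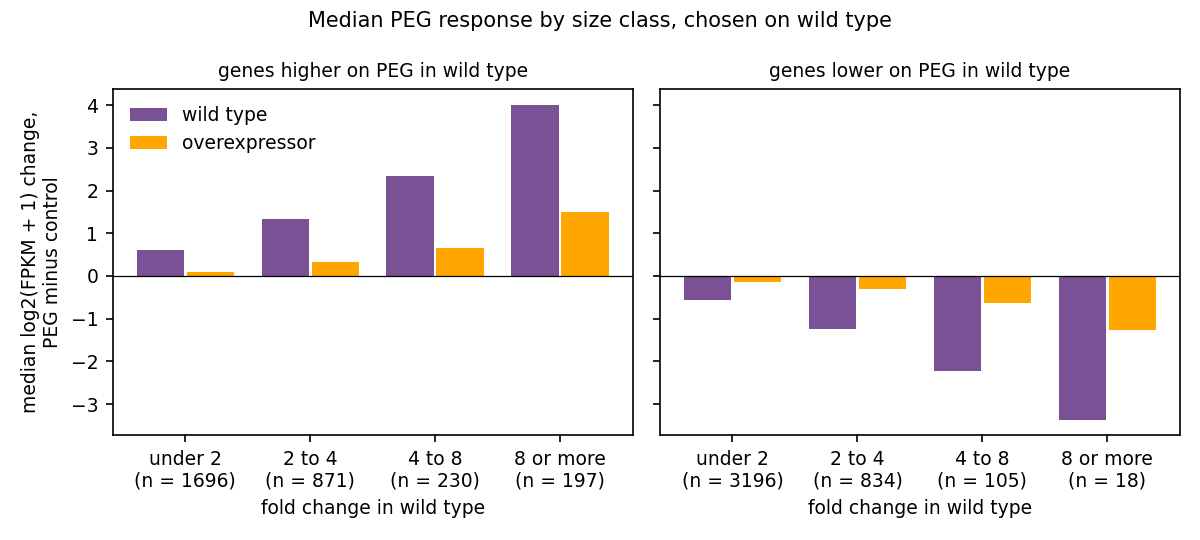
Median change on PEG (log2 of FPKM + 1, PEG minus control) in wild-type roots (purple) and in overexpressor roots (orange) of genes called higher (left) or lower (right) in wild type, by size of the wild-type change, with the number of genes under each pair of bars. The medians of the 197 genes at least 8-fold higher are 4.01 in wild type and 1.51 in the overexpressor, and the classes were chosen on wild type.

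The 58 genes that stood under 1 FPKM without PEG and reached 10 FPKM with it were also followed in the overexpressor. Both limits were set on the wild-type libraries, which favours lower values on PEG and higher values without it in the overexpressor, so the levels are a description. Median FPKM of the 58 genes in wild type was 32.1, 22.95 and 29.99 on PEG, and in the overexpressor it was 4.79, 3.58 and 6.85 on PEG. In untreated roots the medians were 0.132, 0.177 and 0.165 in wild type and 0.613, 1.05 and 0.408 in the overexpressor. The limma interaction test, which uses the same wild-type libraries, called 51 of the 58, against 7.5% of all genes tested. The 58 genes were chosen for a large wild-type change, which favours a call, so this count is a description too. Untreated, 18 of the 58 were at 1 FPKM or more in all 3 overexpressor libraries. On PEG, 10 of the 58 reached 10 FPKM in all 3 overexpressor libraries and 0 stayed under 1 FPKM in all of them.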

How the data were processed

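RNA from roots was sequenced in 12 libraries, per the labels' protocols after CTAB extraction and an Illumina TruSeq kit. The authors deposited 1 column of FPKM per library; per the file headers it carries only the library name, and the unit was judged from the values, since 1 depth per library and 1 whole length per gene turned 100.0% of 370737 values above 0 into whole reads within 0.01 read. Reads and fragments cannot be told apart this way. The submitters' processing notes list Bowtie2 2.2.3 and HISAT2 2.1.0 with no role. In the sources used here the build, annotation and counter were not given.

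The test was limma 3.58.1 (empirical Bayes with trend, R 4.3.3) on log2(FPKM + 1), 4 group means over 12 libraries, 8 residual degrees of freedom, two-sided; it was tested on simulated data. No further scaling was applied. Groups came from the tissue label. A count model was not the main test because the files hold FPKM. Gene lists based on product descriptions could not be applied, because the files give none. The naming rule takes the 15 largest rises and falls and the 5 most abundant genes; identifiers are printed for 2 genes in each direction, because unannotated identifiers say little, and the rest are summarised. Members and classes were chosen with earlier results of these data known. Alternatives were a pseudocount of 0.1, other filters and scalings, limma-voom on recovered reads, the wild-type libraries alone with and without a replicate block, and each wild-type library left out.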

Additional observations from a re-analysis of the deposited data

Results flagged for a closer look

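The response to PEG differed between overexpressor and wild-type roots in 1873 genes by the limma interaction test, 1000 with a more negative and 873 with a more positive response in the overexpressor. The total was 967 without PEG library 1, 1136 without PEG library 3 and 1240 without control library 3 of wild type. Overexpressor libraries were not left out in turn. All 4 genes named above were among the 1873 genes. The difference on the log2 scale, overexpressor minus wild type, was -4.67 for Potri.001G391200.v3.1 (limma adjusted p 0.000915). For Potri.007G120400.v3.1 it was -3.95 (limma adjusted p 0.00105). It was 3.58 for Potri.014G149700.v3.1 (limma adjusted p 0.00191) and 3.38 for Potri.001G176200.v3.1 (limma adjusted p 0.00742). These 2 falling genes were already low in untreated overexpressor roots, at means of 4.74 and 7.81 FPKM, against 120 and 110 FPKM in untreated wild type. Such low levels limit how far a gene can fall on this scale. In the overexpressor their log2 changes on PEG were -1.63 (limma adjusted p 0.043) and -1.34 (limma adjusted p 0.176). The 2 rising genes had 0.960 and 1.33 FPKM in untreated overexpressor roots, against 0.622 and 1.89 FPKM in wild type. All 4 genes were chosen on the wild-type libraries that the interaction test also uses, which favours a difference of this sign. Under limma-voom on recovered reads the differences of Potri.001G391200.v3.1, Potri.007G120400.v3.1 and Potri.014G149700.v3.1 were -4.90, -3.79 and 3.195 and did not pass, with adjusted p of 0.0943, 0.0933 and 0.0567. Over the 12 alternatives the adjusted p of the fourth ran from 0.00483 to 0.0421.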

How the results depend on the processing

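The counts of genes called higher and lower on PEG stayed within 1.5 times under all 14 alternatives, and 0 of the genes called changed sign. Of the 7147 genes called, 6366 were also called by limma-voom on recovered reads. Leaving out 1 wild-type library gave 5266 to 6655 calls in all, 2326 to 2799 higher, 2940 to 3856 lower, 413 to 451 at least 4-fold higher and 93 to 143 at least 4-fold lower. Calls in the higher direction were 41.9% of the total as deposited, 50% with median-ratio scaling and 50.2% with limma-voom, so the excess of lower calls depends on the scaling. Counts of large changes depend on the scale: at least 4-fold higher and lower were 802 and 312 genes with a pseudocount of 0.1, and 860 and 308 with limma-voom. The interaction count was 967 without PEG library 1, 1136 without PEG library 3, 1240 without control library 3, and up to 2076 without another wild-type library. The share of neighbours was 14.9% with no filter and 27% with the filter at 5 FPKM, against 20.7% in the main fit. The number of tested genes moved as well. Genes at least 4-fold higher were 427 of 35301 with no filter, 427 of 24976 in the main fit and 389 of 16879 at 5 FPKM. The 2 genes at 10 FPKM or more on control medium and under 1 FPKM on PEG became 1 with median-ratio or upper-quartile scaling. With the 6 wild-type libraries alone, 3156 genes were higher and 4069 lower, and with the replicate block 3019 and 3817. Same-numbered libraries of the media had correlations of deviations of 0.101, 0.076 and -0.014, and differently numbered libraries had -0.096 to 0.015. The first and second of the same-numbered values lay above all others and the third did not. Whether the numbers pair the libraries cannot be settled from these values. All 4 named genes kept their call in the PEG comparison under every alternative. Depth limits genes near 1 FPKM, where few reads set the values.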
